A study of Rattus norvegicus with 6 samples.

Results

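The genes described here are 9 members of the acute phase and complement systems measured in rat renal cortex, the outer kidney layer of glomeruli and proximal tubules. They are Serpina3n, A2m and Itih4, which encode protease inhibitors or their relatives, Hp, Orm1 and Cp, which encode plasma carrier proteins, Lbp, which encodes a binder of bacterial lipopolysaccharide, and the complement genes C3 and Cfb. A probe was counted as a member when its RefSeq accession mapped to one of these symbols, which gave 16 of the 61537 non-control probes. The symbols were chosen on earlier results of the same values, the log2 signals of the phenylbutazone and vehicle arrays, so every difference given for a member between the groups is a description and carries no test. Probes had to be well above background on 3 or more arrays to be kept, and 12 member probes of 8 genes were kept. The single Orm1 probe was well above background on 0 of 6 arrays, so Orm1 has no usable level.

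All 6 animals were male Sprague-Dawley (Crl:CD(SD)) rats, 5 weeks old when bought. The vehicle group of 3 rats received corn oil for 4 weeks, and the other 3 rats were given the anti-inflammatory cyclooxygenase inhibitor phenylbutazone at 200 mg/kg/day for the same 4 weeks. Each rat's total RNA went onto its own one-colour array. The comparison asks how transcripts of the renal cortex differ after dosing with the drug.

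The acute phase response is the change in plasma proteins that follows infection or tissue damage. Hepatocytes make most of these proteins when interleukin-6 acts through STAT3 and C/EBP factors and interleukin-1 acts through NF-kB, and epithelial cells outside the liver, those of kidney tubules among them, can make some of the same proteins locally. Complement is a cascade of plasma proteases that meets at the cleavage of C3. Cfb supplies the protease of the alternative pathway convertase, and soluble and membrane-bound regulators limit the cascade on host cells.

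Promoter windows of 300 bases, 250 before and 50 after an annotated gene start, were read from RefSeq (build GRCr8), which held 5 of the 9 members. Those of Serpina3n, Itih4 and Cp are shown because Serpina3n was the member that differed most between the groups, Itih4 holds the same STAT-like letters but varied with other genes, and Cp holds a C/EBP-like match and differed less than Serpina3n. Capitals mark matches on either strand to TTCNNNGAA (STAT) or TTGCNNAA (C/EBP), none of which overlapped. An NF-kB motif, GGGA and TTCC parted by any 2 bases, was also searched and had no match in these windows. Looser forms of this motif were not searched.
Serpina3n, chr6:129088142-129088441, plus strand: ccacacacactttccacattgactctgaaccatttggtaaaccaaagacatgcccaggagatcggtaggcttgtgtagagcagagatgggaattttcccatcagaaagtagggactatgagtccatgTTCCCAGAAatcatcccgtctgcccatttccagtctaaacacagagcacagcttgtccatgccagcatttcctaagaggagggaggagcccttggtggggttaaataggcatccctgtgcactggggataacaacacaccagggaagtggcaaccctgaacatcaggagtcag
Itih4, chr16:6086735-6087034, plus strand: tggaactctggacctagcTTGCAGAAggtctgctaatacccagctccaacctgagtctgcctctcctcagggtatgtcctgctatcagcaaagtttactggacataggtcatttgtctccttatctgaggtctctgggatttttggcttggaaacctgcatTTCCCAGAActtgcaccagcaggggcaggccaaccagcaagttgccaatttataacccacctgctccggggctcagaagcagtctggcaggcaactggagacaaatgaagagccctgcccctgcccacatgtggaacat
Cp, chr2:104368420-104368719, plus strand: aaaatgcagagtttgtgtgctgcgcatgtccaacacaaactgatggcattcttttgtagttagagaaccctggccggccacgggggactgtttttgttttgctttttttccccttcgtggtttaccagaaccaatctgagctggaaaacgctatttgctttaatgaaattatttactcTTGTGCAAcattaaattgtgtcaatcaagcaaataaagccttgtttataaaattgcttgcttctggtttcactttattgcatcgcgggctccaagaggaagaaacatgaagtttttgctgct
The Serpina3n window holds TTCCCAGAA from -123 to -115 relative to the start, and the Itih4 window holds the same letters from -89 to -81. Of all 33469 promoter windows in the table, 8.87% hold a STAT match, 10.6% a C/EBP match and 1.3% an NF-kB match. Cp holds the C/EBP match TTGTGCAA from -72 to -65, and Itih4 holds TTGCAGAA from -232 to -225. Of the members not shown, Orm1 and C3 each hold 1 C/EBP match. A match is a description of the letters and not a measured binding site.

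The share of probes well above background ran from 65.2% to 68.4% over the arrays, and 0 spots were saturated. Vehicle arrays 1 and 2 were on slide 1, and vehicle array 3 shared slide 2 and its scan day with the 3 phenylbutazone arrays. Vehicle array 3 stood apart from the other vehicle arrays, at 52.3 on the first principal component (29.4% of the variance) against -41.2 and -36.3. All 12 proximal tubule markers were measured, with a median difference of -0.018 log2 units. Fitted with limma, 0 of 29938 genes (0%) passed a Benjamini-Hochberg adjusted p of 0.05, and 3657 (12.2%) had an unadjusted p under 0.05, a count that ran from 2215 to 9461 over the alternative settings.

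Serpina3n, which encodes a secreted inhibitor of serine proteases, was the member that differed most. Levels are log2 of the processed signal minus the log2 of the 75th percentile of the same array, so they compare arrays for 1 probe and not probes with each other. In vehicle arrays 1, 2 and 3 the level of Serpina3n was -2.04, -1.13 and -3.41, and in phenylbutazone arrays 1, 2 and 3 it was 0.22, 0.50 and 1.28. Each phenylbutazone array lay above each vehicle array, with a gap of 1.36 log2 units between the groups. As processed intensities these were 231, 457 and 86.6 in vehicle and 1041, 1356 and 2363 in phenylbutazone.

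The group means of Serpina3n were -2.19 ± 1.15 in vehicle and 0.67 ± 0.55 in phenylbutazone (SD, n = 3 each). Their difference was 2.86 ± 0.60 log2 units (SE), 7.27-fold higher in phenylbutazone, and 14 of the 29938 genes tested had a larger difference upward. Vehicle arrays alone spanned 4.85-fold, with vehicle 3 the lowest. Against vehicle 3, the only vehicle array on slide 2, the difference was 4.08, and against vehicle 1 and 2, both on slide 1, it was 2.25. As the groups did not overlap, the direction could not change within slide 2 or without vehicle 3, while the size depended on that array.

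Serpina3n belongs to a cluster of related inhibitor genes whose transcripts can share sequence, so the probe may also report a relative. The measured Serpina3c probe stood the other way, at -4.37, -3.50 and -5.03 in vehicle and -5.68, -5.34 and -5.37 in phenylbutazone. Serpina3m was well above background on only 2 of 6 arrays and was not tested. Its dim probe read -5.24, -5.89 and -5.94 in vehicle and -4.79, -5.18 and -5.02 in phenylbutazone, each phenylbutazone array above each vehicle array. Whether the Serpina3n probe shares signal with either gene was not tested. Serpina4, which encodes the kallikrein inhibitor kallistatin and was on none of the gene lists used below, differed by 0.35 ± 0.14 log2 units. Its groups did not overlap, with phenylbutazone higher, as in 12.1% of all genes tested. The groups overlapped for Serpina5 and both Serpina11 probes, which were higher, and for Serpina1 and Serpina6, which were lower.

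**Figure D1:**
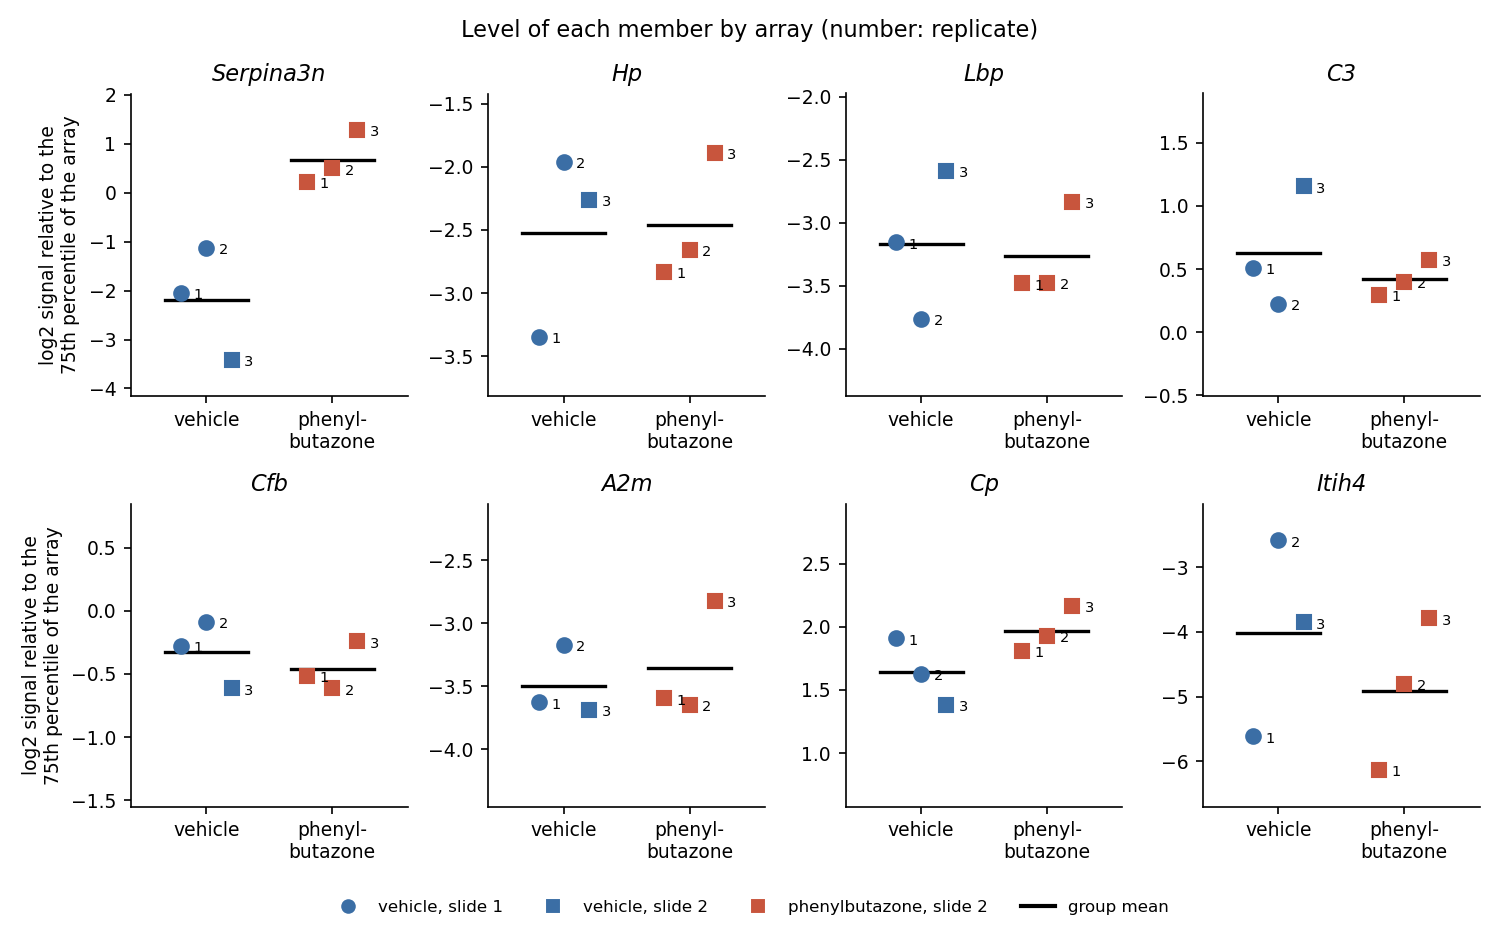
Level of the 8 measured members on each array (y axis, log2 signal relative to the 75th percentile of the array; x axis, group; circles slide 1, squares slide 2, numbers the replicate, black lines group means). Serpina3n is the panel in which the 3 phenylbutazone arrays, 0.22 to 1.28, lie above the 3 vehicle arrays, -3.41 to -1.13.

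A2m encodes alpha-2-macroglobulin, a broad protease trap that is a strong acute phase protein of the rat liver. Its measured probe read -3.63, -3.17 and -3.69 in vehicle and -3.60, -3.65 and -2.82 in phenylbutazone. Phenylbutazone array 3 was the highest and the groups overlapped, with a difference of 0.14 ± 0.26 log2 units (SE). The other 2 A2m probes were well above background on 1 and 0 of 6 arrays and give no level. The A2m difference turned to -0.13 without phenylbutazone replicate 3.

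Itih4 encodes a heavy chain relative of the inter-alpha-trypsin inhibitors. It read -5.62, -2.58 and -3.85 in vehicle and -6.14, -4.81 and -3.79 in phenylbutazone. This was the widest spread of any member, 8.20-fold over the vehicle arrays and 5.09-fold over the phenylbutazone arrays. The groups overlapped, at -0.89 ± 0.90 log2 units, and the probe was well above background on 2 arrays of each group. A second Itih4 probe was well above background on 0 arrays. Without vehicle replicate 2 the Itih4 difference was -0.18, and without vehicle replicate 1 it was -1.69.

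Some genes made mainly by hepatocytes had the same extreme arrays as Itih4, and others did not. Alb, which encodes albumin, read -4.64, 0.27 and -1.56 in vehicle and -5.62, -3.10 and -1.59 in phenylbutazone, a 59.5-fold range that crossed the groups. Vehicle 2 was highest and phenylbutazone 1 lowest for Itih4, for Alb and for the transthyretin gene Ttr, whose arrays stood in exactly the order of those of Itih4. That choice of arrays, made after the values were seen, held for 8 of the 31 measured acute phase genes outside the members (25.8%), which were Hpx, Serpina1, Itih1, Itih3, Mug1, Alb, Ttr and Apoa1, and for 2.55% of all genes tested. Of the 14 hepatocyte markers 9 were measured, with a median difference of -0.11 log2 units by their brightest probes. That median is the value of Ahsg, whose other 2 probes stood lower, at -1.11 ± 0.80 and -1.72 ± 0.80. By the brightest probes 3 of the 9 (Alb, Serpina1 and Itih1) had these extremes. Of the other 6, Apob was highest in phenylbutazone 1, Apoc3, Fgb and Cyp2c11 in phenylbutazone 3, Ahsg in vehicle 3 and Apoh in vehicle 1. Their summed linear level, most of it from the Apoc3 probe, ran from 9.07 to 12.2 in vehicle and from 10.9 to 17.1 in phenylbutazone. The hepatocyte genes Cps1, Tat, Tdo2 and F9 were well above background on 0 of 6 arrays. Ttr was well above background on 2 arrays of each group. It read -7.38 in vehicle 1 and -7.64 in phenylbutazone 1, near F9 at -7.40 and -7.46. Itih3, Mug1 and Serpina1 were well above background on 2 vehicle arrays and 1 phenylbutazone array. The low end of the shared extremes thus lies partly among undetected spots. The part of liver-made RNA in the Itih4 values was not tested.

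**Figure D2:**
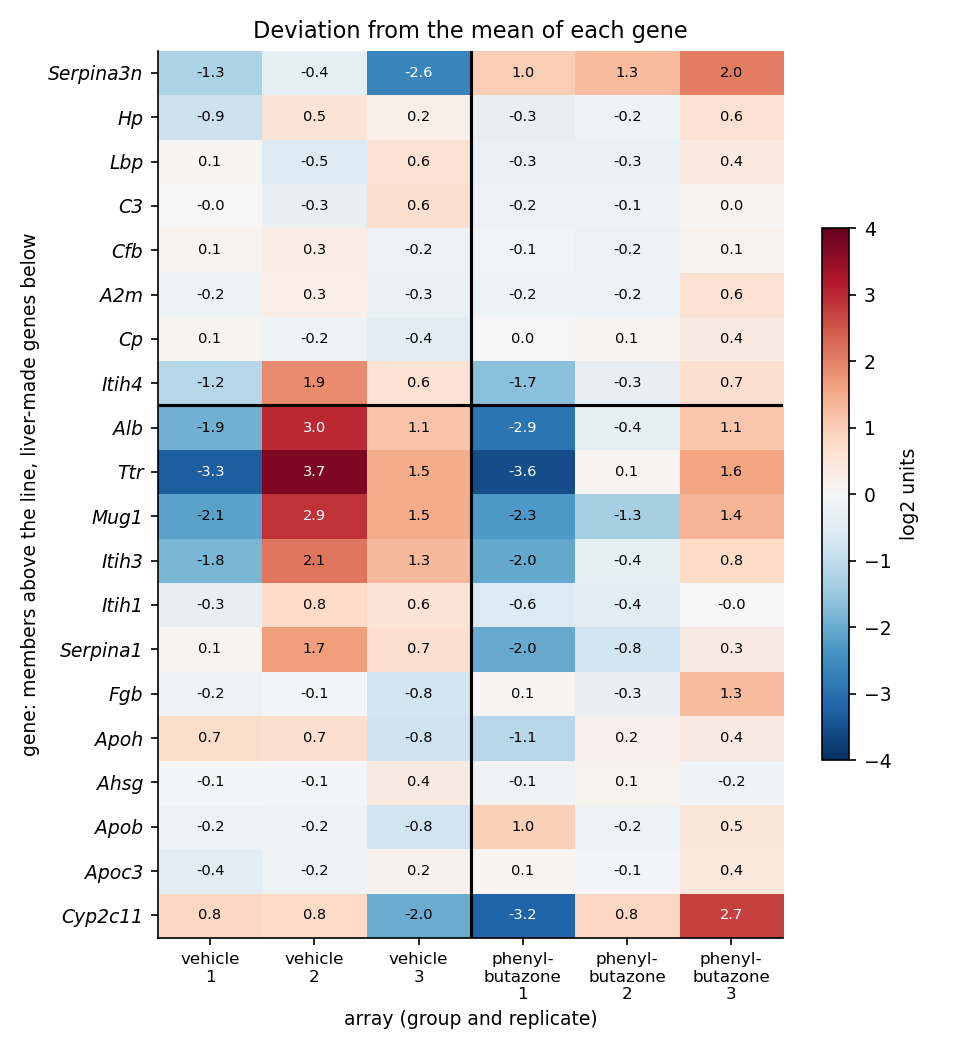
Deviation of each gene from its own mean over the 6 arrays, in log2 units (colour and printed value; rows, the 8 measured members above the line and genes made mainly by the liver below; columns, arrays). Itih4, Alb, Ttr, Mug1 and Itih3 are high in vehicle 2 and low in vehicle 1 and phenylbutazone 1, whereas Serpina3n divides by group.

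Hp encodes haptoglobin, which binds free haemoglobin. Its brighter probe read -3.35, -1.96 and -2.26 in vehicle and -2.83, -2.66 and -1.89 in phenylbutazone. Vehicle 1 was the lowest and phenylbutazone 3 the highest, so that the vehicle arrays enclosed 2 of the 3 phenylbutazone arrays. The difference was 0.061 ± 0.42 log2 units, and that of the second Hp probe was -0.027 ± 0.35. The Hp difference was -0.35 without vehicle replicate 1 and 0.34 without vehicle replicate 2.

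Cp encodes ceruloplasmin, the copper-carrying ferroxidase of plasma, and was the member nearest to a shift after Serpina3n. Its brightest probe read 1.91, 1.62 and 1.38 in vehicle and 1.81, 1.93 and 2.17 in phenylbutazone. The groups overlapped by 0.10 log2 units, since vehicle 1 lay above phenylbutazone 1. The 3 Cp probes differed by 0.33 ± 0.17, 0.51 ± 0.26 and 0.17 ± 0.16 log2 units, all toward phenylbutazone. On slide 2 alone the first of them stood 0.59 above vehicle 3, and without vehicle replicate 3 the Cp difference was 0.20. The Cp groups did not overlap with normexp background correction, without vehicle replicate 1 or without phenylbutazone replicate 1.

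Lbp encodes the protein that hands lipopolysaccharide to CD14 and TLR4. It read -3.16, -3.76 and -2.59 in vehicle and -3.48, -3.48 and -2.83 in phenylbutazone. The phenylbutazone arrays lay inside the vehicle range, and the difference was -0.094 ± 0.33 log2 units. Vehicle 3 was the highest array for Lbp, and the difference was 0.19 without it and -0.67 against it alone on slide 2. The receptor genes Tlr4 and Cd14 differed by -0.13 ± 0.28 and 0.099 ± 0.18.

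C3 encodes the central complement protein, on which all activation pathways meet. It read 0.51, 0.23 and 1.16 in vehicle and 0.29, 0.40 and 0.57 in phenylbutazone. All 3 phenylbutazone arrays lay within the vehicle range, at a difference of -0.21 ± 0.25 log2 units. As for Lbp, vehicle 3 was the highest array. C3 and Lbp placed all 6 arrays in the same order, as did 0.0802% of the genes tested, a match picked after the values were seen. It rests on a near tie of Lbp in phenylbutazone 1 and 2, at -3.480 and -3.476. The C3 difference was 0.052 without vehicle replicate 3 and -0.74 within slide 2.

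Cfb encodes factor B, the partner of C3 in the alternative pathway. The first probe read -0.28, -0.088 and -0.61 in vehicle and -0.52, -0.61 and -0.24 in phenylbutazone, with overlapping groups and a difference of -0.13 ± 0.17 log2 units. The second Cfb probe read -2.21, -2.00 and -2.30 in vehicle and -2.39, -2.58 and -2.31 in phenylbutazone. On this probe the groups lay apart by a margin between -2.30 and -2.31, with phenylbutazone lower by -0.25 ± 0.13. Within slide 2 the first probe turned to 0.16. Macrophages can be a source of C3 and Cfb transcripts, and of 13 macrophage markers 11 were measured, 6 higher and 5 lower, with summed levels, mostly from the Lyz2 probe, of 80.7 to 106.5 in vehicle and 78.4 to 104.3 in phenylbutazone.

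Counted by gene, 1 of the 8 measured members, Serpina3n, had groups that did not overlap with phenylbutazone higher, beside 12.1% of all genes tested. No member was wholly lower by its standing probe, beside 9.39% of all genes. The median difference of the 8 members was -0.017 log2 units, with 4 higher and 4 lower, and 0.015 over all genes, with 52.8% higher. Without Serpina3n the median of the other 7 was -0.094. The median size of a difference was 0.14 for those 7 and 0.16 for all genes, and the median SE was 0.26 against 0.15. With 3 arrays per group, the precision of these differences is limited by the number of arrays.

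**Figure D3:**
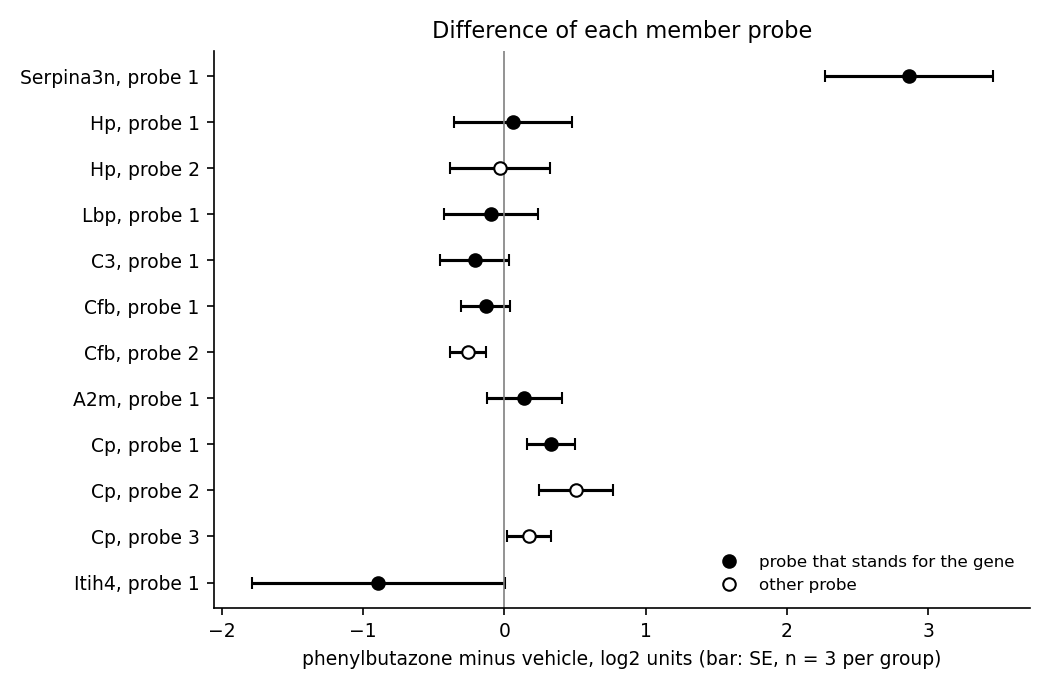
Difference between phenylbutazone and vehicle for the 12 member probes kept (x axis, log2 units; bars, SE, n = 3 per group; filled points, the probe that stands for the gene). Serpina3n stands at 2.86, and the other probes lie between -0.89 and 0.51.

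Other genes of the 2 systems were taken from lists of textbook members, 115 genes beside the 9, of which 90 were measured. The lists were chosen with earlier results of these data known, so their counts and shares are a description. By limma 0 of these 90 passed an adjusted p of 0.05, and 22 had an unadjusted p under 0.05, beside 12.2% of all genes. In 19 (21.1%) the groups did not overlap with phenylbutazone higher, and in 6 (6.67%) with phenylbutazone lower, beside 12.1% and 9.39% of all genes. The 22 and the 19 both include Fgg and Osmr, which passed the background filter through the phenylbutazone arrays. The median difference of the 90 was 0.099 log2 units. All 8 measured erythrocyte markers of 10 were also higher by their brightest probe, with 0 passing and a median of 0.47. Their summed levels were 494 to 677 in vehicle and 580 to 923 in phenylbutazone. A second probe of the erythrocyte marker Slc4a1 stood the other way, at -0.38 ± 0.18, with every phenylbutazone array below every vehicle array. The part of blood RNA in the list values was not tested. A list gene is named below when it also differed by at least 0.58 log2 units, as 1.61% of all genes did upward and 1.97% downward, or when it was fixed by name.

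In the classical pathway 7 genes were measured and 0 passed, with 4 higher and 3 lower. C2, the protease of the classical convertase, read -1.22, -1.46 and -1.19 in vehicle and -2.00, -1.89 and -1.81 in phenylbutazone. All phenylbutazone arrays were lower, at -0.61 ± 0.12 log2 units (limma adjusted p = 0.219), and a second C2 probe stood at -0.51. C4a, which encodes complement C4, differed by 0.44 ± 0.16 (limma adjusted p = 0.378) and its other probe by 0.12, but C4a and its near-identical copy C4b cannot be told apart here. In the lectin pathway all 5 measured genes were lower by their brightest probe and 0 passed, but the other probes of the protease gene Masp1 stood at 0.92 ± 0.64 and 1.14 ± 1.41. Mbl1, which encodes a mannose-binding lectin, read -0.076, -0.0044 and -0.41 in vehicle and -1.24, -0.74 and -1.24 in phenylbutazone, 1.88-fold lower (limma adjusted p = 0.247). Of the other alternative pathway genes, Cfd, the protease that activates factor B, differed by 0.30 ± 0.26.

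C6, a part of the membrane attack complex, read -2.31, -2.33 and -2.38 in vehicle and -2.03, -1.35 and -0.72 in phenylbutazone. The vehicle arrays lay close together and the phenylbutazone arrays spread upward, at 0.97 ± 0.32 log2 units (limma adjusted p = 0.343). Of 11 measured complement regulators 8 were higher, 3 lower and 0 passed. Clu, which encodes clusterin, an inhibitor of the attack complex and also a tubular injury marker, read 2.86, 2.57 and 3.34 in vehicle and 3.75, 4.21 and 4.97 in phenylbutazone (limma adjusted p = 0.285). Cd46, which encodes a membrane cofactor for C3b cleavage, differed by 0.68 ± 0.22 (limma adjusted p = 0.346), but by 0.19 against vehicle 3 alone. Among receptors for complement fragments, C3ar1 stood at -0.093 ± 0.23 and C5ar1 at 0.31 ± 0.27.

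Of 24 other positive acute phase genes measured, 16 were higher, 8 lower and 0 passed. The kininogen genes Kng1 and Kng2, precursors of kinins and cysteine protease inhibitors, had differences as large as that of Serpina3n. Kng1 read -1.45, -1.73 and -0.78 in vehicle and 0.56, 2.56 and 1.64 in phenylbutazone, at 2.91 ± 0.52 log2 units (limma adjusted p = 0.208). Kng2 stood at 2.85 ± 0.52 (limma adjusted p = 0.215), and as near-identical paralogs the 2 genes may share signal. In the kininogens phenylbutazone 2 was the highest array, whereas in Serpina3n it was phenylbutazone 3.

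Fgg, a fibrinogen chain gene, was well above background on 3 phenylbutazone arrays but on 1 vehicle array, so it passed the filter through the group where it was higher. Its levels were -6.97, -5.13 and -5.85 in vehicle and -5.12, -4.74 and -3.48 in phenylbutazone, and no test is given. Its partner Fgb stood at 0.70 ± 0.43 with overlapping groups. Lcn2, which encodes the siderophore binder lipocalin 2, read -1.63, -1.63 and -1.54 in vehicle and -0.47, -1.17 and -0.34 in phenylbutazone (limma adjusted p = 0.275). Ptx3 and Lrg1, named after their values were seen, had differences of 0.71 ± 0.22 and 0.62 ± 0.16 with groups that did not overlap, and a second Lrg1 probe stood at 0.23. Hpx, which encodes the haem binder hemopexin, was also named after its values were seen and stood at -0.76 ± 0.34. It was the gene of this list whose groups lay apart the other way, by a margin between -4.01 and -4.04. It was well above background on 3 vehicle and 2 phenylbutazone arrays. Of the 7 negative acute phase genes 6 were lower and 0 passed, with overlapping groups in all 7, and a median of -0.91 log2 units. Alb and Ttr, with the array pattern given above, are on this list.

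Among genes of the interleukin-6 family and STAT3, 12 of 16 measured were higher, 4 lower and 0 passed. Osmr, the receptor for oncostatin M, read -5.44, -5.76 and -4.74 in vehicle and -4.62, -3.53 and -4.10 in phenylbutazone. Like Fgg it was well above background on 1 vehicle array and 3 phenylbutazone arrays, so no test is given. Il6st, which encodes the shared signal chain gp130, read 3.54, 3.42 and 3.13 in vehicle and 3.69, 3.83 and 4.02 in phenylbutazone, and its 4 probes all stood higher, at 0.35 to 0.52. Il6r differed by 0.28 ± 0.29, and Il6 itself was not measured above the filter. The downstream genes Stat3 and Socs3 stood at -0.074 ± 0.12 and 0.067 ± 0.16, with a second Stat3 probe at 0.44 ± 0.21, and Cebpb and Cebpd at 0.24 ± 0.35 and 0.56 ± 0.51. In the interleukin-1, TNF and TLR4 list 7 of 11 measured genes were higher and 0 passed, with Il1b at 0.45 ± 0.31 and Tnf at 0.24 ± 0.28. The cyclooxygenase gene Ptgs2 stood at -1.68 ± 0.71.

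**Figure D4:**
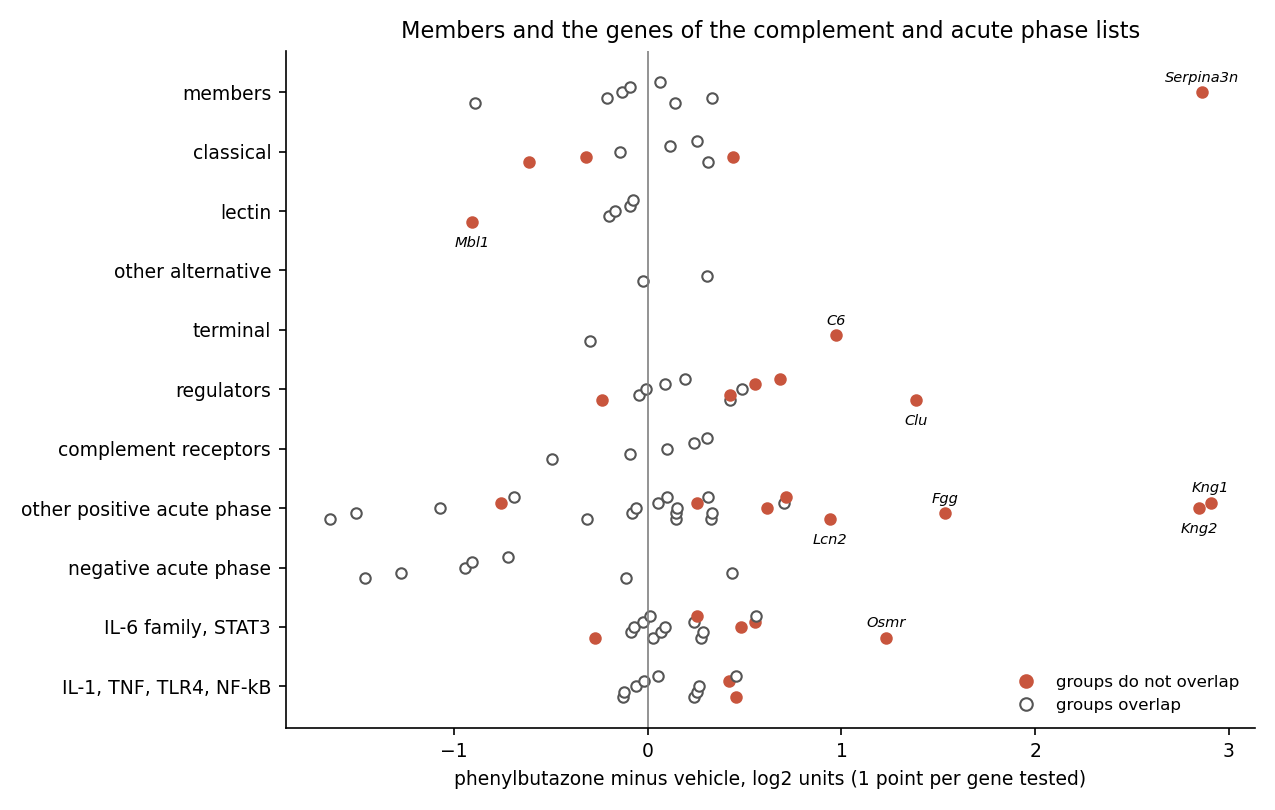
Difference between phenylbutazone and vehicle (x axis, log2 units; 1 point per measured gene) for the members and each list of complement and acute phase genes. Filled points, whose groups do not overlap, are named from 0.9 log2 units: Serpina3n, Kng1 and Kng2 lie near 2.9, and Mbl1 is the named gene on the lower side.

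Tubular injury markers, a list that shares Clu and Lcn2 with those above, were measured beside Serpina3n, and 0 of 15 passed the test. The kidney injury marker Havcr1 stood at -0.19 ± 0.47, Krt8 at -0.077 ± 0.19 and Vcam1 at -0.19 ± 0.20. The other 12 were higher, and 9 of them had groups that did not overlap, beside 12.1% of all genes. The summed level of the 15 was 62.8 to 64.3 in vehicle and 107.7 to 150.1 in phenylbutazone, where most of it came from the Spp1, Clu and Krt18 probes. Phenylbutazone 3 was the highest array for this sum and for Serpina3n, and phenylbutazone 1 the lowest of the treated arrays for both. An order of 3 arrays carries little, and the sums of complement regulators, terminal components and receptors had the same one. Not every gene of the injury sum followed it, since among treated arrays Spp1 was lowest and Krt18 highest in phenylbutazone 2. In vehicle arrays 1, 2 and 3 the injury sum was nearly flat, at 63.1, 62.8 and 64.3, so its order there carries little. Serpina3n was lowest in vehicle 3 and highest in vehicle 2. Neutrophil markers, of which 5 of 11 were measured, had summed levels of 0.60 to 0.99 in vehicle and 0.56 to 0.99 in phenylbutazone, and Elane, Mmp8 and Ngp were well above background on 0 arrays. The part of either in the Serpina3n values was not tested, and in whole tissue a change in the number of cells and a change in RNA per cell cannot be told apart.

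Likeness to a member was measured as the root mean square distance between centred profiles over the 6 arrays, among 12147 other measured genes with a symbol. Nearest to the mean profile of the 8 members were Blvra (0.066 log2 units), Osgin1 (0.095), Tmem132b (0.098), Myo1g (0.11) and Gdf15 (0.12). That mean depended on Serpina3n and is not the profile of each member. Without Serpina3n it moved from -0.18 to 0.17 in vehicle 3 and from 0.0052 to -0.17 in phenylbutazone 2. Among the 5 genes nearest to Serpina3n alone, a list added after its values were seen, were the repressor gene Bcl6 (0.60), the cadherin gene Cdh17 (0.61), Klhl31 (0.77) and the olfactory receptor gene Or9k2 (0.78). Bcl6 differed by 2.27 ± 0.43 log2 units, and in Bcl6 as in Serpina3n vehicle 3 was the lowest array.

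**Figure D5:**
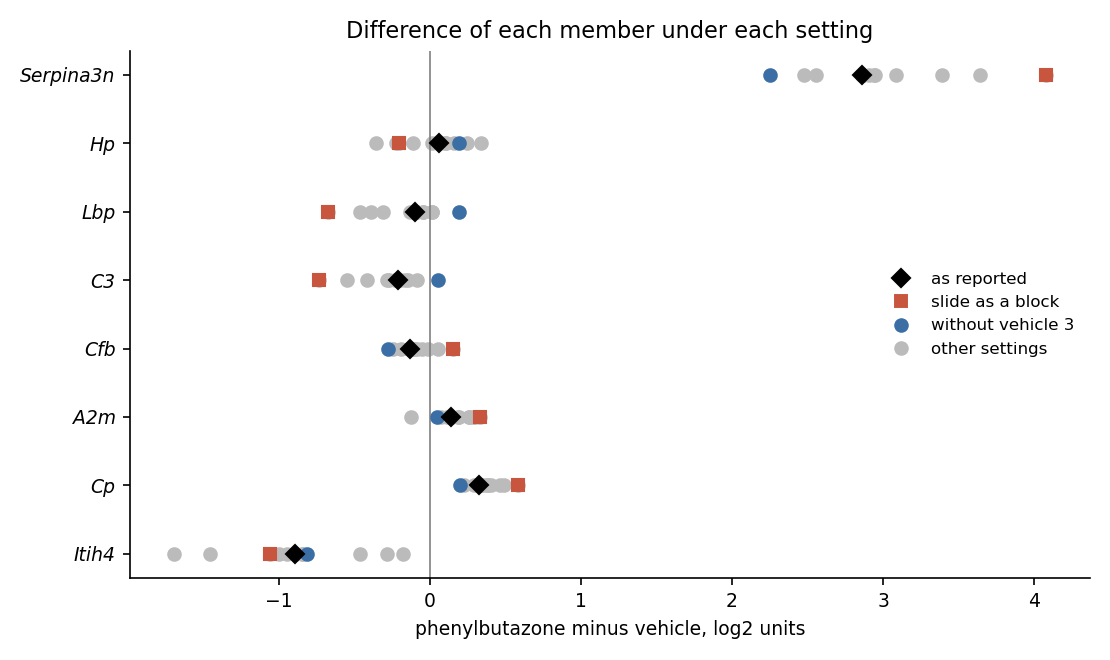
Difference of each measured member (x axis, phenylbutazone minus vehicle, log2 units) as reported and under each alternative setting. Serpina3n stays between 2.25 and 4.08, Cp between 0.20 and 0.59 and Itih4 between -1.69 and -0.18, while the points of the other 5 members fall on both sides of 0.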

How the data were processed

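Total RNA of 6 rats, 1 array per animal, was read with Agilent Feature Extraction 10.7, per the submitters' processing notes. The deposited scanner files hold the processed intensity of each spot, which the authors' software had background-subtracted and detrended, per the file headers. The deposited value table holds the ratio of that intensity to the 75th percentile of the array, as tested against the scanner files.

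Control spots and 40 probes with an outlier flag were left out. Values were taken to log2 and set relative to the 75th percentile of their array. The 41006 probes that the scanner software marked as well above background on 3 or more arrays were kept, and accessions were named through RefSeq genes of GRCr8 (28206 of 61537 probes). Each gene was represented by its probe of highest mean, giving 29938 genes. Differences were fitted with limma 3.58.1 in R 4.3.3 (lmFit, eBayes, two-sided, Benjamini-Hochberg over all genes, threshold 0.05), and the fit was tested on simulated data. The members and lists were chosen with earlier results of these data known. Named list genes had groups that did not overlap and differed by at least 0.58 log2 units, at most 4 per list, besides fixed genes. The normexp alternative used the median spot intensity of the deposited files. Replicate numbers did not pair the arrays. Values of some genes that the rules would name are not reported here.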

Additional observations from a re-analysis of the deposited data

How the results depend on the processing

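The difference of Serpina3n ran from 2.25 to 4.08 log2 units over the 18 alternatives, with phenylbutazone higher in each. Its groups stayed apart with median scaling, normexp, quantile normalization and the deposited value table. The other settings could not make them overlap, since they drop arrays or leave the values of its single probe unchanged. Members whose groups did not overlap with phenylbutazone higher numbered 2 in place of 1 with normexp (offset 50), and 1 to 2 when single replicates were left out, the second being Cp. On slide 2 alone, against 1 vehicle array, Serpina3n, Cp and A2m lay above it on all phenylbutazone arrays and C3 and Lbp below, 3 and 2 members in place of 1 and 0. The block and trend fits do not alter the count. The median of the members lay between -0.23 and 0.15 with single replicates left out. With limma the genes past the threshold numbered 0, against 2 with normexp, 1 with quantile normalization, 8 with an intensity trend and 1 with slide as a random block, and 0 to 814 with single replicates left out. The 814 came with vehicle replicate 3 left out, which puts each group on a slide of its own, and included 1 list gene, Cd46, so that the list count ran from 0 to 1. With slide as a fixed block Lbp moved to -0.67, C3 to -0.74, Cfb to 0.16 and Cp to 0.59. With the replicate block limma called 0 genes and 2695 had an unadjusted p under 0.05, against 3657 as reported. That unadjusted count was 9461 with slide as a fixed block, 8101 on slide 2 alone, 6574 without vehicle replicate 3, 6017 with slide as a random block, 2329 without phenylbutazone replicate 2 and 2215 without phenylbutazone replicate 3. Same-numbered arrays had correlations of deviations of -0.030, 0.011 and -0.074, so the numbers pair nothing. Itih4 gave no value when probes had to be well above background on all 6 arrays, and Orm1 was not measured at any setting with a filter.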
